A study of Mus musculus with 8 samples.

Results

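The genes described here are 7 markers of Schwann cells and related peripheral glia, Sox10, Foxd3, Ngfr, Cdh19, Gfap, S100b and Cryab, in RNA of pancreatic islets. They were chosen by name as a measure of the glia that surround an islet, and were found by their symbols in a count table of 53012 genes, in which each of the 7 matched a single Ensembl identifier. The rule itself used no levels of this table, but the genes were chosen with earlier results of these data known. Schwann cells are the glia of peripheral nerve, derived from the neural crest, and in the pancreas they follow autonomic fibres and form an open sheath at the surface of the islet. An islet preparation therefore carries a small number of them beside the endocrine cells, and the number can vary with how much of the sheath, the nerve and the exocrine tissue remains after digestion. No marker of the list is restricted to Schwann cells, since Cryab, for example, is also made in muscle and in stressed cells of many kinds.

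Islets came from 4 βIgf1r mice (labelled CTRL), which were Ins1-CreERT2 -/- Igf1r flox/flox and received corn oil vehicle, and from 4 βIgf1rKD mice (labelled KD), which were Ins1-CreERT2 +/- Igf1r flox/flox and received tamoxifen at 0.075 mg per g body weight. All 8 mice carried the floxed Igf1r allele, were 17 months old, were injected into the peritoneum on 5 days and gave islets 7 days after the last injection. Both sexes were used, without a mark of sex for each mouse. Cre, tamoxifen and the knockdown of the insulin-like growth factor receptor were given together, so their parts cannot be told apart, and the Cre is driven by an insulin promoter, so that glia are not its target cell. The libraries hold RNA of whole islet preparations, in which fewer cells of a type and less RNA per cell cannot be told apart.

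Total estimated counts were 21634080 to 31202154 in βIgf1r and 23826023 to 42391328 in βIgf1rKD. Igf1r RNA was 53.6 ± 7.21 CPM (SD, n = 4), counts scaled to library size, in βIgf1r and 50.7 ± 4.996 CPM in βIgf1rKD, a log2 fold change of -0.08 (SE 0.11, unadjusted p = 0.483, edgeR), which counts the whole gene and not the floxed exon alone. Beta cell genes summed to 114200 to 151600 CPM in βIgf1r and 107300 to 158400 CPM in βIgf1rKD, so the defining genes of the labelled tissue were abundant in every mouse. Acinar cell genes, 8 digestive enzyme and acinar genes, summed to 11880 to 117600 CPM in βIgf1r and 25100 to 147200 CPM in βIgf1rKD, so exocrine RNA differed widely between preparations of the same group. Among the 15474 genes that passed edgeR's filter on low counts, 637 had an unadjusted p under 0.05 in edgeR's quasi-likelihood test, or 4.12 percent, and 0 had an adjusted p under 0.05, with 8 by DESeq2 and 1 by limma-voom.

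All 7 markers were detected in every mouse, at low levels. Per kilobase of exon, the mean level over the 8 mice was 3.72 CPM for Cryab, 0.449 CPM for Ngfr, 0.444 CPM for S100b, 0.275 CPM for Sox10, 0.233 CPM for Cdh19, 0.143 CPM for Gfap and 0.0718 CPM for Foxd3. Cryab stood above Ngfr in 8 of 8 mice. Ngfr and S100b could not be ordered, since Ngfr was the higher of the pair in 2 of 8 mice on this scale. S100b stood above Sox10 in 8 of 8 mice, and Sox10 above Cdh19, Cdh19 above Gfap and Gfap above Foxd3 in 7 of 8 mice each. The counts behind these levels were 62 to 250 for Cryab, 16 to 72 for Ngfr, 10 to 57 for Cdh19, 9 to 45 for Sox10, 8 to 37 for S100b, 6 to 37 for Gfap and 1 to 10 for Foxd3. Foxd3 was the 1 marker below the filter on low counts.

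For 4 of the 7 markers RefSeq gave the bases before the annotated start on GRCm38.p6, Foxd3, Ngfr, Gfap and S100b. Their windows are shown to set the markers side by side, since Ngfr and Gfap are a pair that varied together between mice, as described further on. The windows run 5′ to 3′ along the strand of the gene, and capitals mark the motifs found. They cover chr4:99656049-99656298 on the plus strand for Foxd3, chr11:95587736-95587948 on the minus strand for Ngfr, chr11:102897201-102897450 on the minus strand for Gfap and chr10:76253586-76253835 on the plus strand for S100b. In Ngfr the 37 bases nearest the start are in an annotated exon and are not shown. The starts are those of RefSeq and can differ from the gene coordinates given below. For Gfap the RefSeq start, 102897200, lies inside the gene at chr11:102887336-102900912, so its window is not upstream of that gene's end.
Foxd3: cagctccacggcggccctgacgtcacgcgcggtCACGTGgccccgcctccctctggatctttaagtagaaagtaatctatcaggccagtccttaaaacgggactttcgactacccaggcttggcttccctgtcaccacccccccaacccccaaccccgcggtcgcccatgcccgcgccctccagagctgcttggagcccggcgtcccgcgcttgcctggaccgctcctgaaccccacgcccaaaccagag
Ngfr: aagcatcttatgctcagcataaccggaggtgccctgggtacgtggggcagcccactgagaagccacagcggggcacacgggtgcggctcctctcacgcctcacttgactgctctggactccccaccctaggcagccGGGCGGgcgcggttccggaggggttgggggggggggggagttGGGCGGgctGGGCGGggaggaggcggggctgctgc
Gfap: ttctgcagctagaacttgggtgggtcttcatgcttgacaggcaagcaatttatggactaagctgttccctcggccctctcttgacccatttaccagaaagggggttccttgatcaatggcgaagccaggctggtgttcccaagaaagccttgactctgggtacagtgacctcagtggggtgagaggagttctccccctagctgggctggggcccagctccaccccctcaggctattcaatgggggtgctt
S100b: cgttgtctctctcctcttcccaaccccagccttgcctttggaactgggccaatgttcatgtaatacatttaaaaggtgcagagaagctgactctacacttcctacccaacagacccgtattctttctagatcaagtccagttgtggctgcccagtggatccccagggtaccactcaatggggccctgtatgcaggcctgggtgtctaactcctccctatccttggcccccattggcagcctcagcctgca
Motifs were searched on both strands as exact letters, and positions count back from the annotated start. The letters of 2 SOX protein cores, ACAAAG and AACAAT, were in 0 of these 4 windows, against 16.46 and 9.42 percent of all 32851 windows of 250 bases. GGGCGG, the GC box, was present 3 times in Ngfr, at -114, -72 and -63, and is in 32.74 percent of all windows. CACGTG, an E-box, was present once in Foxd3 at -217 and is in 6.02 percent of all windows, and TATAAA was in 0 of the 4 against 12.37 percent. G and C made up 70.9 percent of the Ngfr window, 65.6 percent of the Foxd3 window, 55.6 percent of the Gfap window and 53.6 percent of the S100b window, beside a median of 52.4 percent over all windows. The windows thus share no searched motif. Sox10, Cryab and Cdh19 had no entry.

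The first question of the comparison is whether the glial markers differed between islets of βIgf1r and βIgf1rKD mice. Mean levels of 6 markers were lower in βIgf1rKD and that of Cryab was higher, but none of the 6 markers tested had an unadjusted p under 0.05, beside 4.12 percent of all genes in either direction and 1.89 percent with a lower level in βIgf1rKD, and the adjusted p of each was 0.987 (edgeR's quasi-likelihood test). The mice of the groups overlapped for every marker, whereas they did not for 2.22 percent of all genes. The median log2 fold change of the 6 tested markers was -0.37, beside 0.01 over all genes fitted.

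The markers of glial identity in the nucleus are Sox10, a transcription factor needed for the Schwann cell lineage at all its stages, and Foxd3, a transcription factor of the neural crest that remains in early glia. Sox10 (ENSMUSG00000033006, chr15:79154908-79165240, minus strand) was 0.985 CPM in M148, 1.02 in M151, 0.926 in M152 and 0.901 in M153 of βIgf1r, and 0.655 CPM in M145, 0.714 in M146, 0.392 in M149 and 1.11 in M150 of βIgf1rKD. The 4 βIgf1r mice lay close together, 3 βIgf1rKD mice lay below all of them and M150 lay above all of them. The means were 0.957 ± 0.0540 CPM and 0.718 ± 0.297 CPM (SD, n = 4 each), a log2 fold change of -0.39 (SE 0.31, 95% interval -1.09 to 0.31, unadjusted p = 0.243, edgeR). The coefficient of variation of Sox10 was 5.64 percent among βIgf1r mice and 41.3 percent among βIgf1rKD mice, where counting error alone gives 20.1 percent at its mean count, so the βIgf1r mice lay closer together than counting error predicts.

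Foxd3 (ENSMUSG00000067261, chr4:99656299-99658622, plus strand, a gene of a single exon) had 7, 6, 6 and 4 counts in M148, M151, M152 and M153, and 2, 4, 1 and 10 counts in M145, M146, M149 and M150. These counts are so few that the exact Poisson interval of the single count in M149 ran from 0.0253 to 5.57 and that of the 10 counts in M150 from 4.80 to 18.4, for counting error only. As CPM, the βIgf1r mice were at 0.202 ± 0.0163 and the βIgf1rKD mice at 0.132 ± 0.0867 (SD, n = 4 each), with an exact two-sided permutation p of 0.171, where the smallest p this design allows is 0.0286. As for Sox10, M149 was lowest, M150 was highest and 3 βIgf1rKD mice were below all βIgf1r mice. The variation of Foxd3 over the 8 mice, 41.3 percent, was no larger than the 44.7 percent that counting error at a mean of 5.0 counts gives. A microRNA gene, Gm23366, shares 89 exon bases with Foxd3 on the same strand.

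At the cell surface the list holds Ngfr, the low-affinity neurotrophin receptor, which is high in immature and non-myelinating Schwann cells and also present on autonomic neurons, and Cdh19, a cadherin of the Schwann cell lineage. Ngfr (ENSMUSG00000000120, chr11:95568818-95587735, minus strand) was 1.49 CPM in M148, 2.51 in M151, 2.46 in M152 and 1.37 in M153, and 1.22 CPM in M145, 0.857 in M146, 0.697 in M149 and 1.78 in M150. M150 fell inside the βIgf1r range and the other 3 βIgf1rKD mice below it. The means were 1.96 ± 0.609 CPM in βIgf1r and 1.14 ± 0.478 CPM in βIgf1rKD, and the log2 fold change of -0.77 (SE 0.35, 95% interval -1.55 to 0.01) had an unadjusted p of 0.0525 by edgeR's quasi-likelihood test. It is the lowest unadjusted p of the markers, and by DESeq2 it was 0.0492.

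Cdh19 (ENSMUSG00000047216, chr1:110888326-110977584, minus strand) was 1.25 CPM in M148, 1.35 in M151, 0.676 in M152 and 1.23 in M153, and 1.03 CPM in M145, 0.607 in M146, 0.435 in M149 and 1.41 in M150. The groups were interleaved, since M152 of βIgf1r was nearly as low as M146 and M150 of βIgf1rKD was the highest of all. The means were 1.13 ± 0.304 CPM and 0.869 ± 0.436 CPM, a log2 fold change of -0.35 (SE 0.39, unadjusted p = 0.387, edgeR).

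In the cytoplasm Gfap encodes the intermediate filament protein of astrocytes and of non-myelinating Schwann cells, and S100b encodes a calcium-binding protein by which Schwann cells are commonly stained. Gfap (ENSMUSG00000020932, chr11:102887336-102900912, minus strand) was 0.692 CPM in M148, 0.764 in M151, 0.997 in M152 and 0.427 in M153, and 0.561 CPM in M145, 0.214 in M146, 0.261 in M149 and 0.913 in M150. Only M146 and M149, with 6 counts each, lay below the lowest βIgf1r mouse. The means were 0.720 ± 0.235 CPM and 0.487 ± 0.323 CPM, a log2 fold change of -0.53 (SE 0.47, unadjusted p = 0.288, edgeR).

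S100b (ENSMUSG00000033208, chr10:76253853-76261159, plus strand) was 0.692 CPM in M148, 0.946 in M151, 0.570 in M152 and 0.711 in M153, and 0.561 CPM in M145, 0.536 in M146, 0.348 in M149 and 0.913 in M150. M145 and M146 were just below the lowest βIgf1r mouse, M149 was clearly the lowest and M150 ranked with the highest βIgf1r mouse. The means were 0.730 ± 0.157 CPM and 0.589 ± 0.235 CPM, a log2 fold change of -0.28 (SE 0.33, unadjusted p = 0.426, edgeR).

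Cryab encodes alpha-B crystallin, a small heat shock protein that is abundant in lens and striated muscle and is also made by myelinating Schwann cells. It behaved unlike the other 6. Cryab (ENSMUSG00000032060, chr9:50751325-50756636, plus strand) was 2.77 CPM in M148, 3.82 in M151, 5.45 in M152 and 4.17 in M153, and 8.89 CPM in M145, 2.21 in M146, 10.9 in M149 and 5.80 in M150. M145, M149 and M150 lay above all βIgf1r mice and M146 lay below all of them. The means were 4.05 ± 1.10 CPM in βIgf1r and 6.95 ± 3.79 CPM in βIgf1rKD, a log2 fold change of 0.77 (SE 0.42, 95% interval -0.16 to 1.71, unadjusted p = 0.0948, edgeR). Its variation over the 8 mice was 54.7 percent, far above the 8.21 percent from counting error. Cryab shares 252 exon bases with Hspb2, which lies on the opposite strand and had 1 to 7 counts a mouse, and the part of either gene in reads of the shared bases was not tested.

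**Figure D1:**
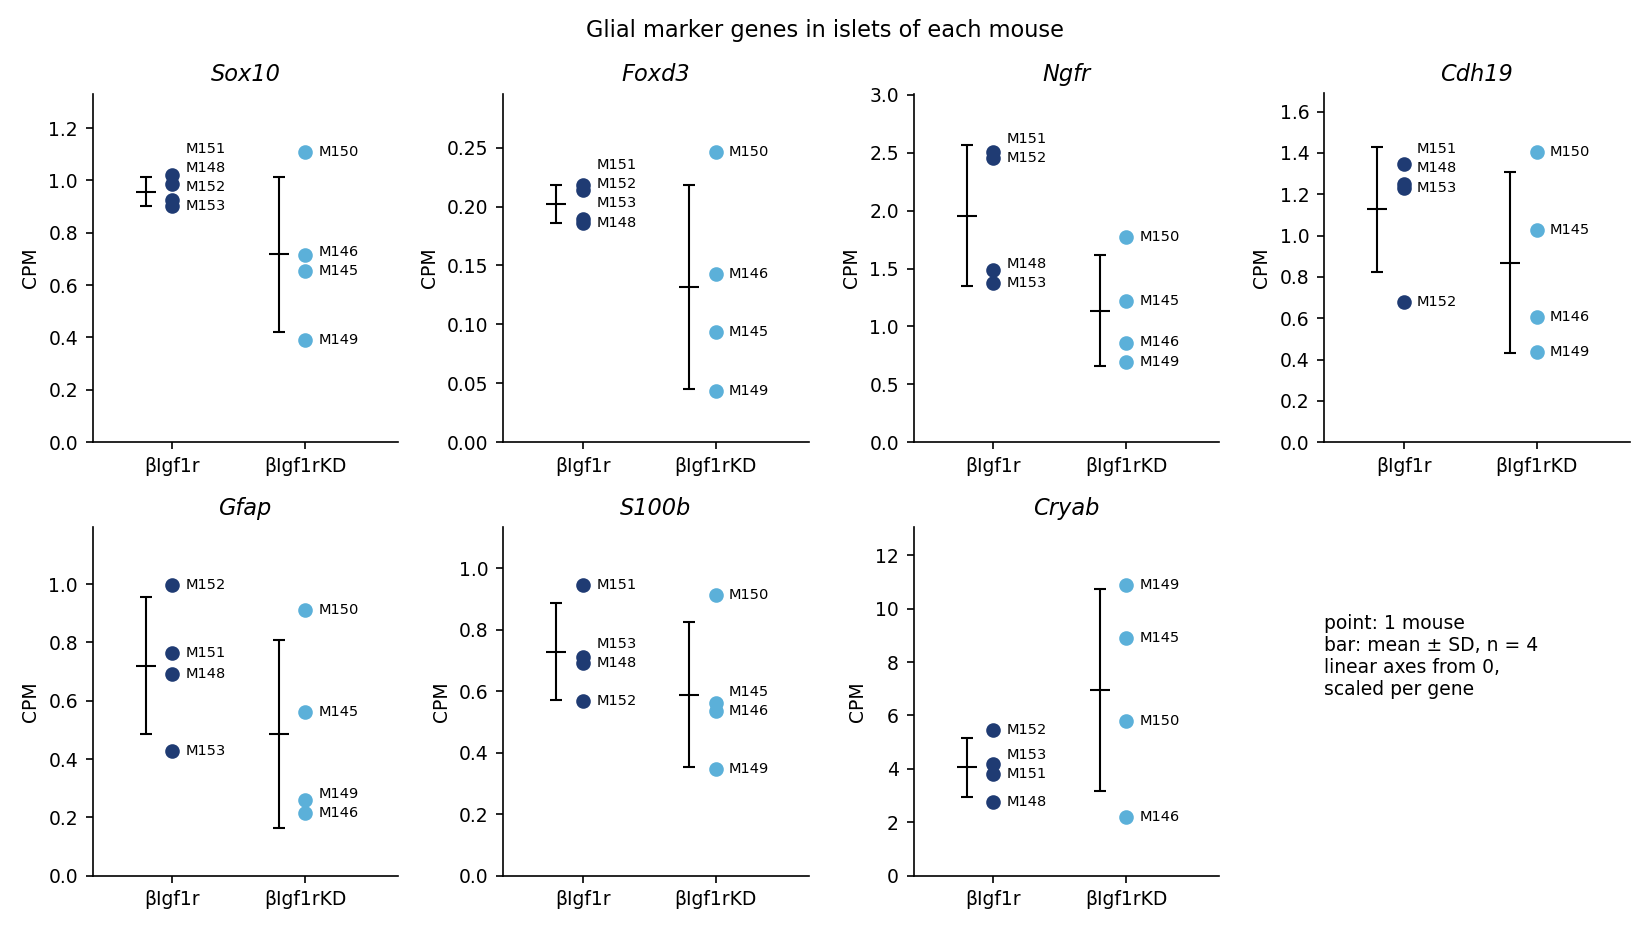
Level of each of the 7 markers in CPM (vertical axes, each starting at 0) in the 4 βIgf1r and the 4 βIgf1rKD mice, with a point for each mouse and a bar for the mean ± SD. In the panels of Sox10, Foxd3, Ngfr and S100b 3 βIgf1rKD mice lie below all βIgf1r mice, and in the Cryab panel 3 lie above them.

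**Figure D2:**
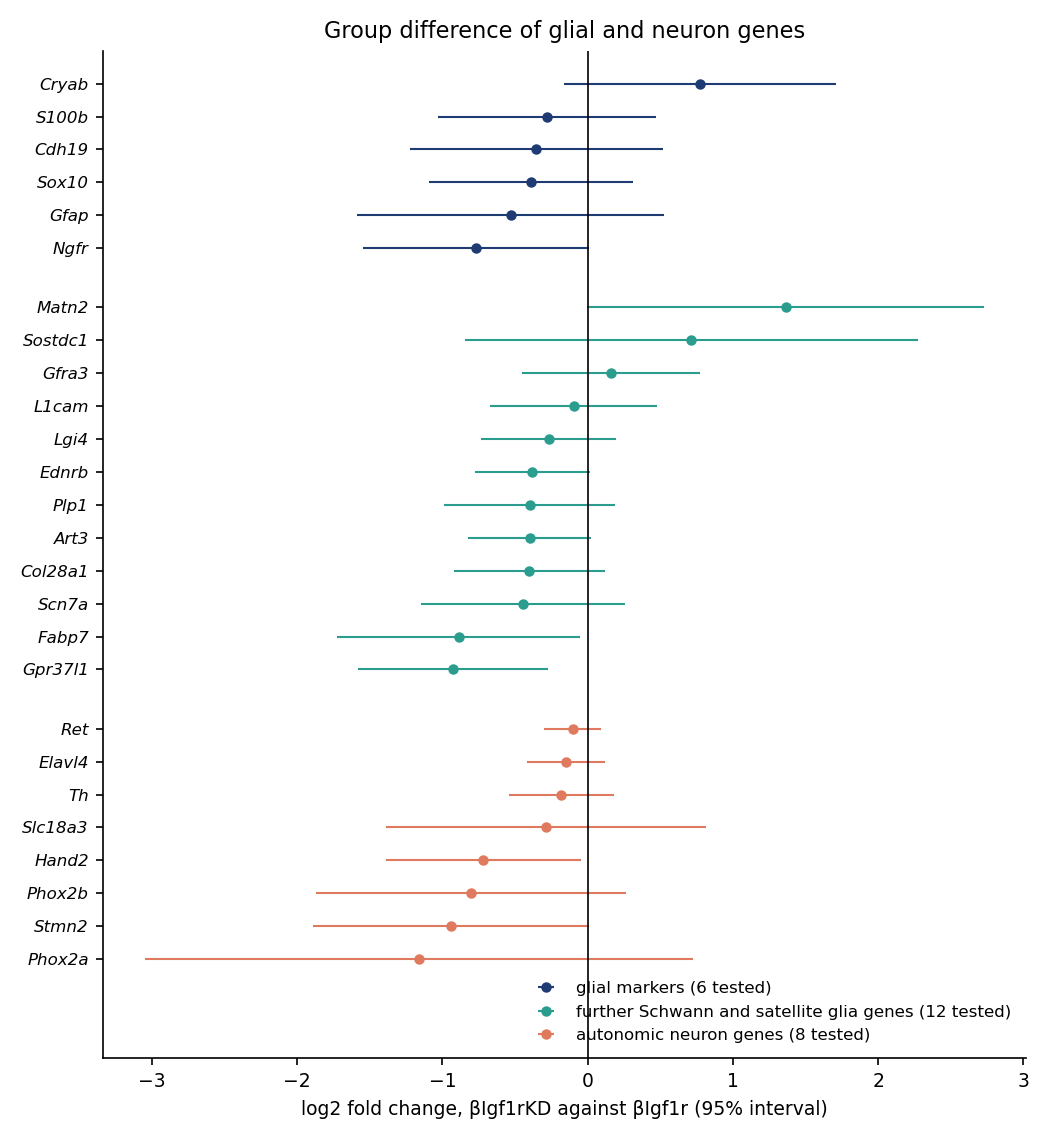
Log2 fold change of βIgf1rKD over βIgf1r (horizontal axis), with 95% intervals from edgeR's quasi-likelihood test. Shown are the fitted genes of the markers, of the longer glial list and of the autonomic neuron list, both described further on. Every interval of a marker includes 0, from -1.55 to 0.01 for Ngfr and from -0.16 to 1.71 for Cryab. In the other lists the intervals of Gpr37l1, Fabp7 and Hand2 lie below 0.

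The value without M150 is given because its library stands apart from the other βIgf1rKD mice in these markers. Since M150 was picked from these same values, a larger difference without it follows from the choice. Without M150 the log2 fold changes were -0.70 for Sox10 (unadjusted p = 0.0499), -1.08 for Gfap (unadjusted p = 0.0430) and -1.09 for Ngfr (unadjusted p = 0.0125), and those of S100b and Cdh19 were -0.59 (unadjusted p = 0.113) and -0.71 (unadjusted p = 0.106), by edgeR. The adjusted p of these 5 was 0.733 to 0.914. Leaving out the lowest mouse, M149, gave -0.20 for Sox10, -0.34 for Gfap, -0.60 for Ngfr, -0.10 for S100b and -0.14 for Cdh19. The unadjusted p of these by edgeR was 0.506, 0.508, 0.119, 0.761 and 0.713. The size of the group difference therefore rested on which βIgf1rKD mouse was included, while its sign was negative for these 5 markers in each of the 8 fits that leave out 1 mouse. For Cryab the log2 fold change was 0.47 without its highest mouse, M149 (unadjusted p = 0.285, edgeR). It was 1.07 without its lowest mouse, M146 (unadjusted p = 0.00338, adjusted p = 0.807, edgeR). M150 also had the deepest library and the highest smooth muscle RNA, with Acta2 at 19.2 CPM against 4.78 to 10.9 in the other mice and Myh11 at 18.9 CPM against 5.35 to 13.5. The part of these in its marker levels was not tested.

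The summed level shows how much the list turns on Cryab. All 7 markers together came to 9.74 ± 1.47 CPM in βIgf1r and 10.9 ± 3.75 CPM in βIgf1rKD, a higher mean in βIgf1rKD, whereas the 6 markers without Cryab came to 5.69 ± 0.846 CPM and 3.93 ± 1.81 CPM, a lower one. Without Cryab the sum was 5.30 CPM in M148, 6.80 in M151, 5.84 in M152 and 4.83 in M153, and 4.12 CPM in M145, 3.07 in M146, 2.18 in M149 and 6.36 in M150. The same 3 βIgf1rKD mice were below the βIgf1r range and M150 was second to M151 alone. Of these 6 markers M149 had the lowest level in 5 and M146 in 1, and M150 had the highest level in 3, M151 in 2 and M152 in 1.

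**Figure D3:**
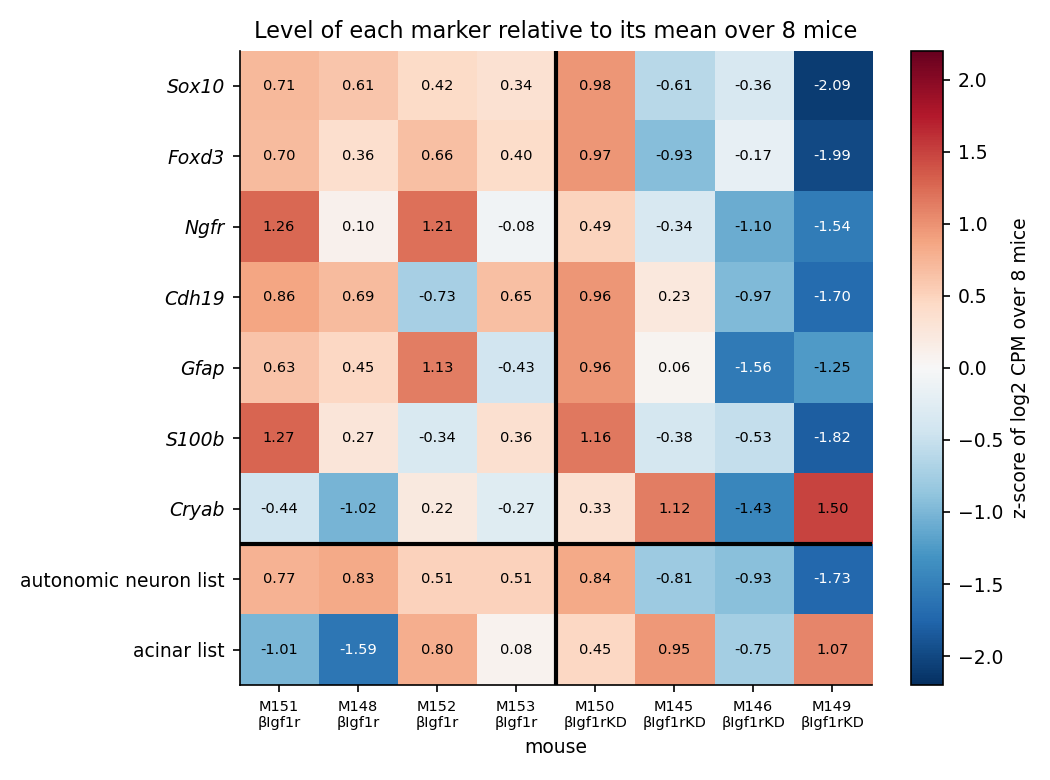
Level of each marker (rows) in each mouse (columns) as a z-score of log2 CPM over the 8 mice, coloured from low to high. The columns of M146 and M149 are low and that of M150 is high for the 6 markers other than Cryab, whose row is highest in M149 and M145.

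The second question is whether the markers rise and fall together from preparation to preparation. Over the 8 mice the 10 pairs among Sox10, Gfap, Ngfr, S100b and Cdh19 had a Pearson r of log2 CPM between 0.61 and 0.91, with a median of 0.78, and all 10 were positive. Of all 15 pairs of the 6 fitted markers, with Cryab among them, 5 had an adjusted p under 0.05 by Pearson's r and 6 by Spearman's rho (exact permutation over all pairings of the mice, two-sided, Benjamini-Hochberg over the 15 pairs). Sox10 and S100b had r = 0.91 and rho = 0.88 (adjusted permutation p of r 0.00670, of rho 0.0272). S100b and Cdh19 had r = 0.91 and rho = 0.93 (adjusted permutation p 0.00446 and 0.0272), and Gfap and Ngfr had r = 0.90 and rho = 0.88 (0.0143 and 0.0272).

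These relations leaned on the mice at the ends. Without the 2 mice farthest from the median of the first gene, r was 0.82 for Sox10 and S100b, 0.83 for S100b and Cdh19 and 0.75 for Gfap and Ngfr, but it was 0.19 for Gfap and S100b and -0.31 for Gfap and Cdh19, and 9 of the 10 pairs were positive. Without M149 alone 0 of the 15 pairs had an adjusted p under 0.05, without M151 there were 3 and without M152 there were 9. After the mean of each group was subtracted the 10 pairs had an r of 0.51 to 0.90, a value to which the wider βIgf1rKD group contributed most. Among the 4 βIgf1r mice alone Gfap was highest and Cdh19 lowest in M152, so not every pair rose together inside that group. The 5 pairs with Cryab had an r of -0.56 to 0.05 and none passed, and among them the sign changed with the mouse left out for the pairs with Gfap, Ngfr, S100b and Cdh19.

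Nerve fibres reach the islet with their Schwann cells, so genes of autonomic neurons were set beside the markers. The mean log2 CPM of 8 fitted neuron genes was 2.88 in M148, 2.84 in M151, 2.69 in M152, 2.69 in M153 and 2.88 in M150, and 1.94 in M145, 1.87 in M146 and 1.41 in M149. By this mean the mice fell into 5 with high and 3 with low neuron RNA, and these 3 were the mice low in Sox10, Foxd3 and Ngfr. Since the values form separate clusters, a coefficient pooled over the 8 mice is not given, and neither cluster holds the 6 mice needed for one of its own. Hand2, a transcription factor of sympathetic neurons, was 2.32, 2.36, 2.31 and 2.42 CPM in M148, M151, M152 and M153 and 1.26, 1.14, 0.871 and 2.37 CPM in M145, M146, M149 and M150 (log2 fold change -0.72, SE 0.30, unadjusted p = 0.0389, edgeR). Stmn2, a tubulin-binding protein of growing axons, was 9.32, 9.46, 8.33 and 9.15 CPM in those βIgf1r mice and 3.84, 2.61, 2.09 and 10.04 CPM in those βIgf1rKD mice. The list mean, Hand2 and Stmn2 were thus low in the preparations with low Sox10 and high in M150. Of the list, 0 of 8 fitted genes had a higher mean in βIgf1rKD, where 47.7 percent of all genes had a log2 fold change below 0. Of these 8, 1 (Hand2) had an unadjusted p under 0.05, beside 1.89 percent of all genes called lower, and 0 had an adjusted p under 0.05. The median log2 fold change of the list was -0.50, beside 0.01 over all genes fitted. The 4 most abundant, Ret, Th, Elavl4 and Stmn2, include genes that endocrine cells also express: Ret was 137.9 ± 5.76 CPM in βIgf1r and 128.4 ± 12.0 CPM in βIgf1rKD, and Th was 63.7 ± 5.36 and 56.1 ± 14.5 CPM. Th and Ret did not follow the split. Th was highest of all mice in M146, at 76.6 CPM, and lowest in M150, at 42.3 CPM. Ret was 143.1 CPM in M146 and 132.7 CPM in M150.

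Cryab instead tended to be higher in preparations with more exocrine RNA. The relations of the markers with the cell lists were not planned in advance. Over the 8 mice Cryab and the mean log2 CPM of the acinar genes had r = 0.87 and rho = 0.90, and r was 0.96 without M148 and M151, the mice farthest from the median acinar level, and 0.84 after subtraction of the group means. Whether this passes depends on the relations counted together, with an adjusted exact permutation p of 0.0969 for r and 0.0821 for rho over the 18 relations of 6 markers with the acinar, endothelial and fibroblast lists, and of 0.0323 and 0.0365 over 24 relations that add those with the neuron list, computed over all 8 mice for this adjustment. With the acinar mean as a covariate the log2 fold change of Cryab was 0.06 (unadjusted p = 0.849, edgeR). The other 5 fitted markers had r of -0.49 to -0.02 with the acinar list, 0.22 to 0.42 with the endothelial list and -0.16 to 0.30 with the fibroblast list, with 0 of these relations at an adjusted p under 0.05. All 8 acinar genes had a higher mean in βIgf1rKD, with a median log2 fold change of 0.89 and 0 at an unadjusted p under 0.05.

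**Figure D4:**
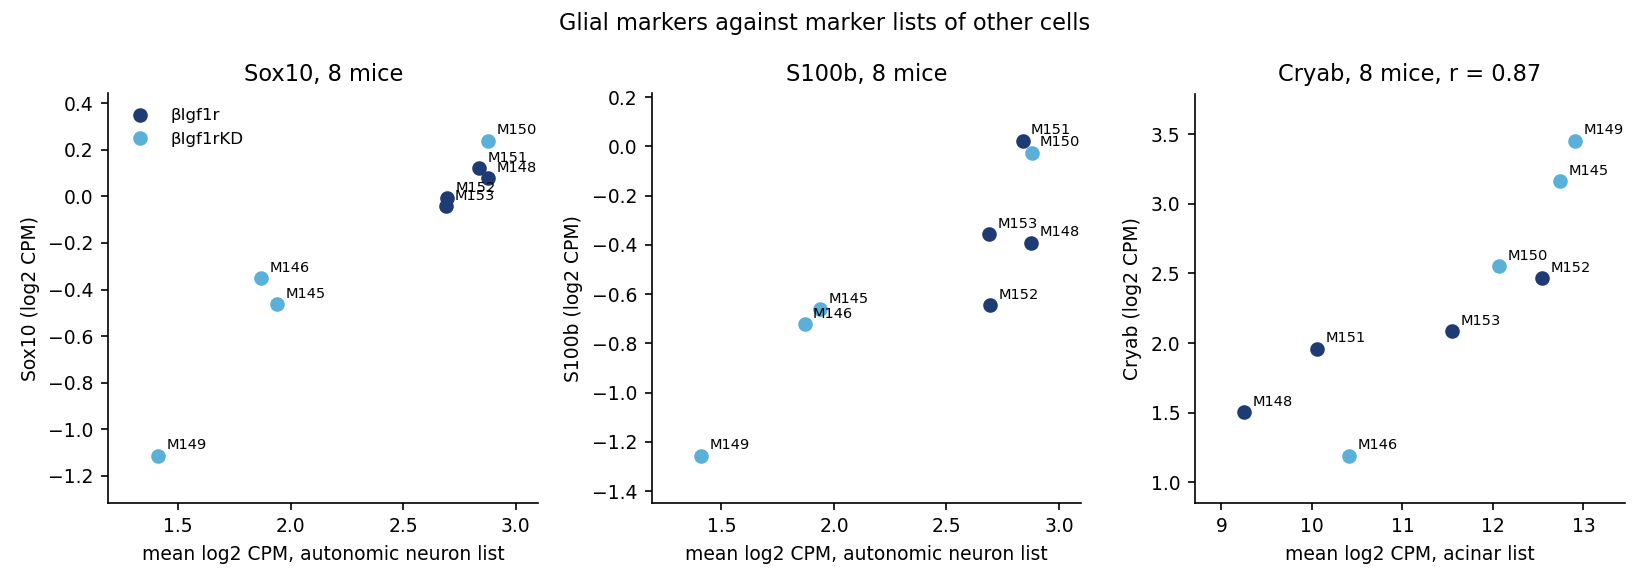
Markers in log2 CPM (vertical axes) against the mean log2 CPM of the neuron or acinar genes (horizontal axes), a point for each of the 8 mice, coloured by group. M145, M146 and M149 stand apart at neuron means of 1.41 to 1.94, and Cryab is highest in M149 and M145, where the acinar mean is highest.

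Other cells that an islet preparation can hold were measured beside the markers. Fibroblast genes summed to 71.0 to 95.4 CPM in βIgf1r and 18.8 to 263.0 CPM in βIgf1rKD, with M146 lowest and M149 highest, which are both low in the glial markers. All 6 endothelial genes had a lower mean in βIgf1rKD, with an unadjusted p under 0.05 for Kdr (log2 fold change -0.38), Tek (-0.38), Cdh5 (-0.28) and Pecam1 (-0.24), or 4 of 6 beside 1.89 percent of all genes, and sums of 302.5 to 382.3 CPM in βIgf1r and 267.9 to 303.4 CPM in βIgf1rKD. Among 5 fitted pericyte and smooth muscle genes 1 had an unadjusted p under 0.05, beside 1.89 percent of all genes called lower. It was Rgs5, with a log2 fold change of -0.31 (unadjusted p = 0.0271, edgeR). Among 6 macrophage genes C1qb and C1qc had 0.54 and 0.66 at an unadjusted p under 0.05, beside 2.23 percent of all genes called higher. C1qb and C1qc were highest in M149, at 35.1 and 30.3 CPM, against at most 19.9 and 14.5 CPM in the other mice. Without M149 their log2 fold changes were 0.27 and 0.28 (unadjusted p = 0.0584 and 0.0639, edgeR). The part of these cells in the marker levels was not tested.

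Genes that mark central glia or pigment cells, which share markers with Schwann cells, were detected unevenly. Of 8 astrocyte and oligodendrocyte genes, Olig2 and Gjb6 had 0 counts in all mice, Mog had 0 to 1, Opalin 1 to 4 and Slc1a2 2 to 18. The other 3 were higher, with 85 to 388 counts for Aqp4, a water channel, 52 to 276 for Aldh1l1, a folate enzyme, and 1 to 45 for Mobp, a myelin protein of oligodendrocytes. Aldh1l1 was 9.83, 11.3 and 9.32 CPM in M152, M145 and M149, the mice with the highest acinar means. It was 2.13, 1.89 and 2.79 CPM in M148, M151 and M146, the mice with the lowest. Aqp4 was highest in M146, at 13.85 CPM. Which cells held these RNAs was not tested. Of 5 melanocyte genes, Tyrp1 had 0 counts in all mice, Tyr 0 to 1, Mlana 0 to 8 and Pmel 5 to 16, whereas Dct, an enzyme of pigment synthesis, had 83 to 236 counts. Neither list was thus at 0 as a whole, and of the 4 genes fitted from the lists together 0 had an unadjusted p under 0.05. A count of 0 in these libraries allows up to 3 counts, so Olig2, Gjb6 and Tyrp1 were not detectable at this depth.

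A longer list of Schwann cell and satellite glia genes held 16 genes, of which 12 were fitted. Of these 9 had a lower and 3 a higher mean in βIgf1rKD, 2 had an unadjusted p under 0.05, both lower, beside 1.89 percent of all genes, and the median log2 fold change was -0.39. Gpr37l1, a G protein-coupled receptor of glia, was 1.30, 1.16, 1.42 and 0.948 CPM in M148, M151, M152 and M153 and 0.702, 0.393, 0.566 and 0.863 CPM in M145, M146, M149 and M150. Here all βIgf1rKD mice, M150 included, lay below all βIgf1r mice, as did 1.27 percent of all genes fitted, and the log2 fold change was -0.93 (SE 0.29, unadjusted p = 0.0104, adjusted p = 0.987, edgeR).

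Fabp7, a fatty acid-binding protein of immature glia, was 1.198, 1.06, 1.14 and 1.04 CPM in M148, M151, M152 and M153 and 0.421, 0.357, 0.435 and 1.11 CPM in M145, M146, M149 and M150 (log2 fold change -0.89, SE 0.37, unadjusted p = 0.0396, edgeR). M145, M146 and M149 were below all βIgf1r mice, as they were for Sox10, and M150 was within the βIgf1r range. Of the more abundant genes, Ednrb was 12.8 ± 3.25 CPM in βIgf1r and 9.86 ± 1.12 CPM in βIgf1rKD, L1cam was 7.43 ± 2.11 and 6.93 ± 2.30 CPM, and Matn2 was 10.6 ± 2.73 and 27.3 ± 29.6 CPM, where M146 alone had 71.4 CPM. Pax3 had 0 counts in every mouse.

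Myelin genes were evenly split. Of 16 listed, 8 were fitted, 4 with a higher and 4 with a lower mean in βIgf1rKD, 0 had an unadjusted p under 0.05 and the median log2 fold change was -0.03. Mbp, a protein of compact myelin, was 62.6 ± 1.95 CPM in βIgf1r and 60.2 ± 0.900 CPM in βIgf1rKD, a variation between mice far below that of the glial markers. Pmp22 was 7.53 ± 0.904 and 5.30 ± 1.86 CPM (log2 fold change -0.51, unadjusted p = 0.0729), and Cnp was 10.2 ± 2.23 and 11.5 ± 2.52 CPM.

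Of 10 genes of the repair Schwann cell, the state that follows nerve injury, 5 were fitted. Jun had 297 to 769 counts a mouse and Gfra1 184 to 570, whereas the rest of the list had at most 79. Jun, the transcription factor that drives that state and is also induced in many stressed cells, was 17.1 ± 3.57 CPM in βIgf1r and 22.4 ± 3.70 CPM in βIgf1rKD (log2 fold change 0.39, SE 0.16, unadjusted p = 0.0397, edgeR). It was 1 of 5 at an unadjusted p under 0.05, beside 2.23 percent of all genes called higher. Shh, Olig1 and Fgf5, which are more restricted to repair cells, had 0 to 2, 0 to 1 and 0 to 1 counts a mouse. Gfra1, a receptor for the neurotrophic factor Gdnf, was 11.7 ± 3.60 and 11.5 ± 3.16 CPM.

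Of the neurotrophins, their receptors and the partners of Ngfr, 11 of 13 were fitted, 9 with a lower and 2 with a higher mean in βIgf1rKD, and 0 had an unadjusted p under 0.05. Among ligands, Ntf3 was 0.934 ± 0.0888 CPM in βIgf1r and 0.633 ± 0.217 CPM in βIgf1rKD (log2 fold change -0.55, unadjusted p = 0.104, edgeR). All βIgf1rKD mice lay below all βIgf1r mice, as did 1.27 percent of all genes fitted. The margin was small, with 0.814 CPM in M150 against 0.819 CPM in M152, at 9 to 38 counts a mouse. Among receptors and partners, Ntrk2 was 147.2 ± 19.6 and 136.3 ± 12.6 CPM, Sort1 was 198.1 ± 13.4 and 192.5 ± 13.2 CPM and Maged1 was 1178 ± 78.1 and 1089 ± 99.7 CPM. These are far above Ngfr itself and are expressed by many cells. Neuregulin signalling through Erbb2 and Erbb3 maintains Schwann cells. Erbb3 was 4.72 ± 0.754 CPM and 6.16 ± 2.10 CPM (log2 fold change 0.38, unadjusted p = 0.155), Erbb2 was 1.35 ± 0.358 and 1.80 ± 1.13 CPM, and 0 of 3 fitted genes of that list had an unadjusted p under 0.05.

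The families of the structural markers were also compared. Among small heat shock proteins and their partner Bag3, all 5 fitted had a log2 fold change above 0, from 0.03 for Hspb7 to 0.59 for Hspb1. Over all genes, 8086 of 15474 had a log2 fold change above 0. Of the 5, 1 had an unadjusted p under 0.05, beside 2.23 percent of all genes called higher. Bag3, a co-chaperone, was 19.0, 15.5, 18.2 and 16.8 CPM in M148, M151, M152 and M153 and 23.2, 21.5, 23.4 and 19.5 CPM in M145, M146, M149 and M150. All βIgf1rKD mice lay above all βIgf1r mice, as did 0.956 percent of all genes fitted (log2 fold change 0.33, SE 0.10, unadjusted p = 0.00724, adjusted p = 0.987, edgeR). Unlike Cryab, Bag3 was high in M146 too. Hspb1 was 8.13 ± 1.29 and 12.3 ± 8.17 CPM, with 24.5 CPM in M149, and Hspb8 was 14.8 ± 1.75 and 15.6 ± 3.35 CPM.

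Of 8 fitted genes among S100 relatives and their receptor Ager, 7 had a lower mean in βIgf1rKD, 0 had an unadjusted p under 0.05 and the median log2 fold change was -0.15. S100a11 was the most abundant at 56.3 ± 8.91 CPM in βIgf1r and 50.2 ± 6.58 CPM in βIgf1rKD. Of 9 other intermediate filament genes, 6 had a lower mean, where 47.7 percent of all genes had a log2 fold change below 0. An unadjusted p under 0.05 was found for 1 of the 9, beside 1.89 percent of all genes called lower. The filament gene called was Nefl, the light neurofilament of neurons, at 2.98, 3.57, 2.74 and 1.66 CPM in M148, M151, M152 and M153 and 1.17, 0.357, 0.697 and 2.54 CPM in M145, M146, M149 and M150 (log2 fold change -1.17, SE 0.51, unadjusted p = 0.0468, adjusted p = 0.987, edgeR). Vim, a filament of mesenchymal cells and glia, was 19.3 ± 6.36 and 17.01 ± 5.82 CPM, and Nes was 11.9 ± 6.19 and 22.9 ± 19.4 CPM, with 51.8 CPM in M149.

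The genes whose pattern over the 8 mice was most like that of the 6 fitted markers, by Pearson r with the mean z-score of those markers among 15468 genes, were Nos1 (r = 0.98), Tmeff2 (r = 0.98), Gfra2 (r = 0.98), Avil (r = 0.97) and Adgrb2 (r = 0.97). With Cryab left out of the mean the first 5 were Fgf13, Nos1, Nell2, Avil and Tmeff2. Nos1 was 8.22 ± 2.94 CPM in βIgf1r and 4.24 ± 3.83 CPM in βIgf1rKD (log2 fold change -0.93, SE 0.55, unadjusted p = 0.122, edgeR). An r above 0.7 with the mean z-score was found for 6 of 12 fitted genes of the longer glial list, beside 3.74 percent of all genes. Without Cryab in the mean this was 4 of 12, beside 4.04 percent. The pattern was not particular to glial genes. It was found for 6 of 8 fitted autonomic neuron genes, with or without Cryab in the mean. It was also found for 3 of 9 other intermediate filament genes and 2 of 5 pericyte and smooth muscle genes. These coefficients are a description over 8 mice and carry no test.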

How the data were processed

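Islet RNA of 4 βIgf1r and 4 βIgf1rKD mice was sequenced in bulk, a library for each mouse, grouped by the sample labels. The values the authors deposited are estimated counts per gene, not scaled between mice, from stranded mRNA libraries. Of these values 12.4 to 14.7 percent a mouse were not whole. The submitters' processing notes name fastp, kallisto and GRCm38. The annotation release and the strand setting of the counting are not given in the sources used here. Symbols, coordinates and exon lengths come from GENCODE M21 for GRCm38, matched on the Ensembl identifier, and sequences from RefSeq.

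Estimated counts were rounded to whole numbers. Genes were kept by edgeR 4.0.16 (filterByExpr, minimum count 10 in at least 4 mice, minimum total 15), scaled by TMM and tested with edgeR's quasi-likelihood method in R 4.3.3, with Benjamini-Hochberg adjustment over all 15474 genes. CPM includes the TMM factors, and a prior count of 2 was added for log2 CPM. Single values and correlations used exact two-sided permutation (70 assignments of 4 and 4 mice, or all pairings). With 21634080 to 42391328 counts a mouse, counting error alone was 8.21 percent for Cryab and 20.1 percent for Sox10. The scripts were tested on simulated data.

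The members and lists were chosen with earlier results of these data known. Named are all 7 members, listed genes with an unadjusted p under 0.05, up to 4 abundant genes of a list described, and the 5 genes nearest to the mean z-score. Shh, Olig1, Fgf5, Olig2, Gjb6, Mog, Tyr, Tyrp1, Pax3, Hspb2, Hspb7 and Ntf3 were named after their values were seen. Some listed genes are not reported here on their own. Alternatives tried were RLE size factors, no filter, at least 10 counts in every mouse, Xist, acinar or endothelial covariates, DESeq2 1.42.0, limma-voom with limma 3.58.1, other level scales and leaving out each mouse.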

Additional observations from a re-analysis of the deposited data

Results flagged for a closer look

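Of 22 sets of 4 mice checked for a mouse far from the rest, 2 were found, where about 1 in 20, or 1.1, is given by chance. In Cdh19 the βIgf1r mouse M152 had a log2 CPM of -0.42 while the other 3 βIgf1r mice had 0.38 to 0.50, a gap of 0.869 of the range of the group. In the summed level of the 7 markers the βIgf1rKD mouse M146 had 5.28 CPM while the other 3 had 12.2 to 13.1 CPM, a gap of 0.884 of the range. M146 is the βIgf1rKD mouse in which Cryab was low as well as the other markers.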

How the results depend on the processing

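No paired analysis was possible because no mouse number of βIgf1r recurs in βIgf1rKD. The sign of the log2 fold change of every fitted marker held in all alternatives run, and 0 markers had an adjusted p under 0.05 in any. Of the markers, 1 (Ngfr) had an unadjusted p under 0.05 without the filter, with at least 10 counts in every mouse, with Xist as a covariate and by DESeq2, and 0 to 3 when a mouse was left out, Ngfr without M148 or M153, Cryab without M146 and Sox10, Gfap and Ngfr without M150. Genes with an unadjusted p under 0.05 numbered 1098 without the filter, 1143 with Xist, 372 with the acinar and 412 with the endothelial mean as a covariate, and 383 to 1114 when a mouse was left out. DESeq2 gave 8 and limma-voom 1 with an adjusted p under 0.05. The level of Sox10 in βIgf1r was 1.04 CPM of the raw library total. The summed level of the markers, βIgf1rKD minus βIgf1r, was 1.13 CPM, 0.406 to 2.997 CPM when a mouse was left out, -1.76 CPM without Cryab, an alternative chosen after seeing the data, and -0.66 as a mean z-score. Marker pairs with an adjusted p under 0.05 numbered 0 to 9 when a mouse was left out, and r ranged over -0.49 to 0.52 for Gfap and Cryab, -0.61 to 0.30 for Ngfr and Cryab, -0.69 to 0.0240 for S100b and Cryab and -0.68 to 0.23 for Cryab and Cdh19. The log2 fold change of Tek was 0.0773 with the endothelial mean, which contains Tek, as a covariate. For single genes and pairs under settings that keep all mice, 186 values kept direction and side of the threshold, 21 no longer passed and 8 newly passed. Of the 5 nearest genes 3 were shared when Cryab was left out. The cause of the other changes was not tested. Low counts limit Foxd3 most, with 1 to 10 counts a mouse, and Gfap and S100b next.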

Other observations

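Some libraries carried RNA of further cells, named here because of their values. Ms4a1, a gene of B cells, was high in the βIgf1r mouse M151, at 9.93 CPM against 0.131 to 1.36 CPM in the other 7 mice. The βIgf1rKD mouse M150, with the highest Sox10, was also the mouse with the most Wt1, a transcription factor of mesothelium, with 34 counts where the lowest mice had 0.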
